A study of Danio rerio with 20 samples.

Results

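Transcripts of 10 digestive enzyme genes of the exocrine pancreas were measured in zebrafish larvae exposed to citalopram or ifosfamide. The genes were taken by their symbols in the deposited expression table. They comprised the trypsins prss1, prss59.1 and prss59.2, the chymotrypsinogen ctrb1, the elastases ela2, ela2l and ela3l, the carboxypeptidases cpa5 and cpb1, and the carboxyl ester lipase cel.1. All 10 were found among the 38718 gene models of the table. Of these, 9 were among the 19723 gene models with a mean of at least 1 FPKM that entered the tests, and ctrb1 was not. FPKM, fragments per kilobase of transcript, is a level per transcript length, so it can be compared between genes. The deposited values are scaled between libraries by size factors and not by total reads, as given below.

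The exocrine pancreas consists of acinar cells, which make digestive enzymes, pack them into zymogen granules and release them into a duct that drains to the gut. The proteases leave the cell as inactive precursors. In the gut, enteropeptidase activates trypsin, and trypsin then activates chymotrypsin, the elastases and the carboxypeptidases. In zebrafish, transcripts of these genes mark differentiated acinar cells, and acinar gene expression depends on the transcription factor Ptf1a. Hormones such as cholecystokinin stimulate release of the granules.

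There were 20 libraries in 5 groups of 4. Citalopram, an antidepressant that blocks serotonin reuptake, was used at 10 and 1000 µg/L, and ifosfamide, a chemotherapy prodrug whose products cross-link DNA, at 1 and 100 µg/L. The group labelled ERM was taken as the reference. Its label is not spelled out and holds a concentration of 1 µg/L with no compound, and the design text names no drug for it. Each group had 5 beakers, of which 4 were sequenced, and the libraries carry the replicate letters A to D, or A, B, C and E in ERM. The material is given as larvae. Strain, age, exposure time and the number of larvae in a beaker are not stated in the labels.

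Recovered read counts ranged from 10699832 to 17311011 per library. Replicate C of citalopram 1000 µg/L stood apart from the others. Only 25952 gene models were detected in it, where each of the remaining 19 libraries had 28913 to 30110. Its deviation from the mean profile fell with gene length, with a slope of -0.15 log2 units per doubling of length, against -0.09 to 0.07 elsewhere. The 10 enzyme genes took 2.77% of its reads and 1.22% to 2.17% of the reads in the other libraries. Results that include this library are therefore given with and without it.

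The enzyme genes were among the most abundant transcripts of the larvae. The main trypsin gene prss1 averaged 6989 FPKM over all libraries and ranked 5 among all gene models. prss59.2 averaged 3570 FPKM and prss59.1 averaged 3208 FPKM, at ranks 10 and 13. cpa5 had a mean of 1627 FPKM, ela3l of 1551 FPKM and cel.1 of 658 FPKM. ela2 had a mean of 352 FPKM, ela2l of 175 FPKM and cpb1 of 40.9 FPKM. By contrast, ctrb1 had a mean of 0.448 FPKM, from 3 to 50 reads per library. The levels per length thus ran from trypsins over carboxypeptidase A and the elastases down to carboxypeptidase B, with the annotated chymotrypsinogen gene far below all others.

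The trypsins cut proteins after lysine and arginine. prss1 (ENSDARG00000042993) lies on chromosome 16, from 25080764 to 25085327, on the minus strand of the GRCz11 assembly. In libraries A to D it had 6507, 5697, 9307 and 8758 FPKM at citalopram 10 µg/L and 8118, 5052, 17506 and 6207 FPKM at citalopram 1000 µg/L. It had 5543, 6597, 4975 and 3764 FPKM at ifosfamide 1 µg/L and 5235, 8994, 4472 and 5110 FPKM at ifosfamide 100 µg/L, against 7432, 6250, 6997 and 7252 FPKM in ERM. Replicate C of citalopram 1000 µg/L was higher than every other library, and the ERM libraries lay inside the range of each citalopram group. In 3 of the 4 libraries at ifosfamide 1 and 100 µg/L, apart from replicate B of each, prss1 lay under the lowest ERM library.

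prss59.1 (ENSDARG00000079274, chromosome 16, 26012569 to 26013851) and prss59.2 (ENSDARG00000073742, chromosome 16, 26017360 to 26018694) are tandem trypsin copies on the plus strand. How reads that match both copies were assigned is not given in the sources used here, so the split between them is uncertain. prss59.2 had 3278, 2818, 4434 and 4690 FPKM at citalopram 10 µg/L, and 4295, 3291, 10896 and 2889 FPKM at citalopram 1000 µg/L. It had 2810, 3422, 2387 and 2563 FPKM at ifosfamide 1 µg/L and 2454, 4302, 1885 and 2324 FPKM at ifosfamide 100 µg/L, against 3375, 2786, 3195 and 3302 FPKM in ERM. As for prss1, all groups overlapped and replicate C of citalopram 1000 µg/L was the highest. prss59.1 ran from 2646 to 4261 FPKM at citalopram 10 µg/L, from 2378 to 8176 FPKM at citalopram 1000 µg/L, from 1941 to 3112 FPKM with ifosfamide 1 µg/L and from 1905 to 4117 FPKM at ifosfamide 100 µg/L, against 2603 to 3418 FPKM in ERM.

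**Figure D1:**
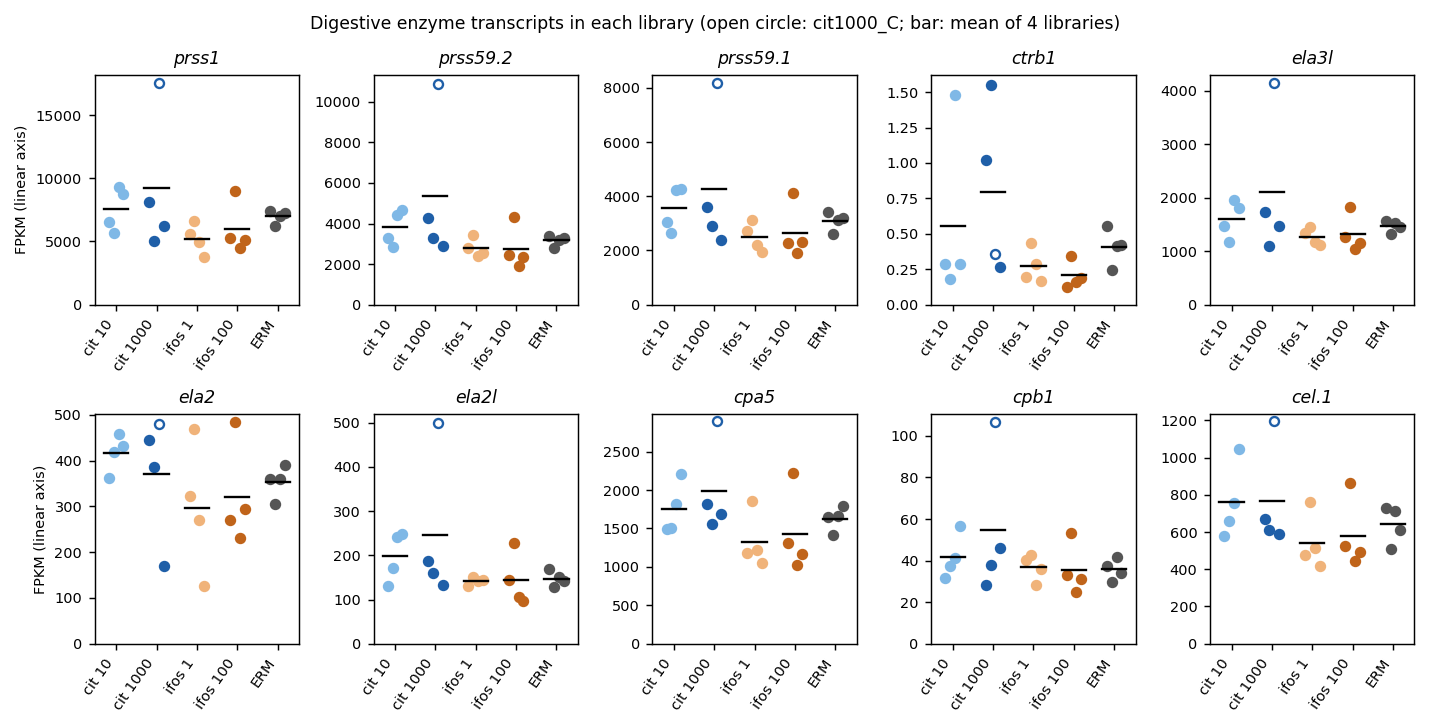
FPKM of each of the 10 enzyme genes (linear axis from 0, 1 panel per gene) in the 4 libraries of each group, with the group mean as a bar; cit, citalopram, and ifos, ifosfamide, are followed by the dose in µg/L. The open circle, replicate C of citalopram 1000 µg/L, is the highest library for 8 of the 9 tested genes, reaching 17506 FPKM for prss1, while the ERM libraries lie close together.

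The elastases are serine proteases. ela3l (ENSDARG00000007276, chromosome 5, 26111596 to 26118855) had 1462, 1177, 1951 and 1798 FPKM at citalopram 10 µg/L and 1739, 1097, 4145 and 1463 FPKM at citalopram 1000 µg/L. It had 1330, 1456, 1175 and 1107 FPKM at ifosfamide 1 µg/L and 1258, 1832, 1033 and 1154 FPKM at ifosfamide 100 µg/L, against 1557, 1316, 1524 and 1450 FPKM in ERM. The pattern followed the trypsins, with replicate C of citalopram 1000 µg/L on top and overlap between all groups. ela2 (ENSDARG00000056744) and ela2l (ENSDARG00000056765) lie beside each other on chromosome 8, at 21376290 to 21381734 and 21366771 to 21372485, on opposite strands.

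ela2 had a different order of libraries. It had 363, 419, 457 and 431 FPKM at citalopram 10 µg/L and 445, 385, 481 and 169 FPKM at citalopram 1000 µg/L. It had 323, 468, 271 and 126 FPKM at ifosfamide 1 µg/L and 269, 484, 230 and 294 FPKM at ifosfamide 100 µg/L, against 361, 304, 361 and 390 FPKM in ERM. Its highest library was replicate B of ifosfamide 100 µg/L, and replicate D of citalopram 1000 µg/L and replicate D of ifosfamide 1 µg/L were the lowest. ela2l ran from 130 to 247 FPKM at citalopram 10 µg/L, from 133 to 499.8 FPKM at citalopram 1000 µg/L, from 131 to 150.04 FPKM at ifosfamide 1 µg/L and from 96.0 to 228 FPKM at ifosfamide 100 µg/L, against 128 to 169.8 FPKM in ERM.

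Carboxypeptidases remove single residues from the ends of peptides, hydrophobic ones in the case of the A type and basic ones in the case of the B type. cpa5 (ENSDARG00000021339, chromosome 25, 18459924 to 18470695) had 1491, 1511, 1814 and 2214 FPKM at citalopram 10 µg/L and 1824, 1558, 2897 and 1689 FPKM at citalopram 1000 µg/L. It had 1181, 1860, 1215 and 1049 FPKM at ifosfamide 1 µg/L and 1314, 2222, 1019 and 1173 FPKM at ifosfamide 100 µg/L, against 1650, 1411, 1667 and 1790 FPKM in ERM. Every group overlapped ERM, and the library that stood apart was again replicate C of citalopram 1000 µg/L, though by less than for the trypsins. cpb1 (ENSDARG00000045442, chromosome 24, 4755391 to 4765740) ran from 31.8 to 56.5 FPKM at citalopram 10 µg/L, from 28.4 to 106 FPKM at citalopram 1000 µg/L, from 28.3 to 42.9 FPKM at ifosfamide 1 µg/L and from 25.1 to 53.1 FPKM at ifosfamide 100 µg/L, against 29.7 to 41.8 FPKM in ERM.

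cel.1 (ENSDARG00000017490, chromosome 21, 11401247 to 11411365) codes for the bile salt-dependent lipase of pancreatic juice, which splits cholesteryl esters and other lipids. It had 577, 659, 758 and 1047 FPKM at citalopram 10 µg/L and 668, 613, 1196 and 589 FPKM at citalopram 1000 µg/L. It had 478, 762, 515 and 419 FPKM at ifosfamide 1 µg/L and 523, 861, 443 and 491 FPKM at ifosfamide 100 µg/L, against 732, 510.5, 713 and 610.2 FPKM in ERM. The highest library outside citalopram 1000 µg/L was replicate D of citalopram 10 µg/L, and the ranges of all groups overlapped.

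ctrb1 codes for a precursor of chymotrypsin, a protease that cuts after aromatic residues, and most chymotrypsin reads were listed under other gene models. ctrb1 (ENSDARG00000090428) is placed on chromosome 7, from 35075847 to 35079299, plus strand. The table also holds a chymotrypsin model without an Ensembl identifier on an alternate contig of chromosome 7, from 35077955 to 35080738 on the same strand. Alternate contigs are second versions of a chromosome stretch within the same assembly. The deposited annotation matches it to chymotrypsin A of the Atlantic cod. Its mean was 411 FPKM, a ratio of 917 to the mean of ctrb1, which would place it between cel.1 and ela2 in level.

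By library, the contig model of chymotrypsin A had 344, 430.4, 417 and 719.8 FPKM at citalopram 10 µg/L and 511, 406, 1404 and 335 FPKM at citalopram 1000 µg/L. It had 239.5, 421, 317 and 116 FPKM at ifosfamide 1 µg/L and 182, 658, 204 and 181 FPKM at ifosfamide 100 µg/L, against 329.6, 248, 389 and 363 FPKM in ERM. Its highest library was again replicate C of citalopram 1000 µg/L and its lowest was replicate D of ifosfamide 1 µg/L, as for prss1. ctrb1 itself had 0.287, 0.179, 1.48 and 0.286 FPKM at citalopram 10 µg/L and 1.02, 1.55, 0.359 and 0.262 FPKM at citalopram 1000 µg/L. It had 0.198, 0.436, 0.288 and 0.167 FPKM at ifosfamide 1 µg/L and 0.126, 0.346, 0.161 and 0.19 FPKM at ifosfamide 100 µg/L, against 0.554, 0.242, 0.41 and 0.423 FPKM in ERM. Replicate C of citalopram 1000 µg/L, the top library of the contig model, was not the top library of ctrb1.

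The neighbours of ctrb1 showed the same split. zgc:112160 on chromosome 7 had a mean of 0.233 FPKM, and a contig model that spans its position on the same strand, matched to chymotrypsin B, had a mean of 53.9 FPKM. zgc:136461 had a mean of 0.0721 FPKM, and the nearest same-strand contig model, matched to chymotrypsin A, had a mean of 42.3 FPKM. The elastase genes were split less unevenly. On an alternate contig of chromosome 8, a model from 21369249 to 21372822 overlapped ela2l in position and had a mean of 58.3 FPKM, a ratio of 0.333 to ela2l. A model from 21376441 to 21402909 overlapped ela2 and had a mean of 40.0 FPKM, a ratio of 0.114 to ela2, but it extends well past that gene. For cpa5, the overlapping contig model had a mean of 0.405 FPKM. No same-strand model on an alternate contig overlapped the other 6 enzyme genes in position.

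**Figure D2:**
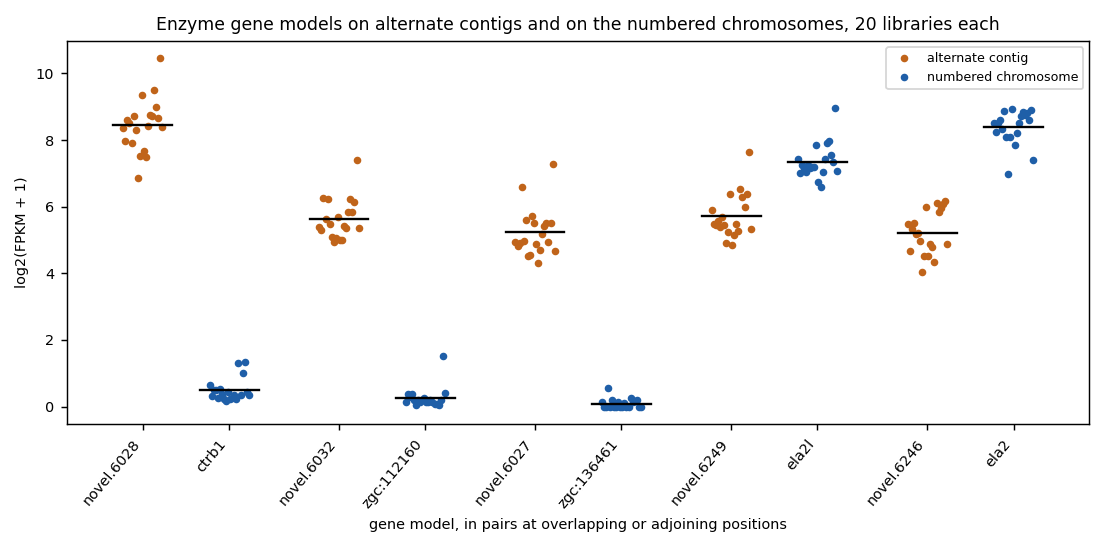
Level, as log2(FPKM + 1), of 5 models on alternate contigs (left point cloud of each pair) and of the same-strand gene at or nearest to that position on the numbered chromosome (right point cloud) in all 20 libraries, with the mean as a bar; contig models carry the table's own identifiers. The reads of the chymotrypsin region of chromosome 7 lie almost wholly on the contig (411 FPKM for the model paired with ctrb1, 0.448 FPKM for ctrb1). By contrast, ela2l and ela2 lie above their contig counterparts.

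No enzyme gene differed from ERM past the threshold, an adjusted p under 0.05 in limma on log2(FPKM + 1), at any dose. At citalopram 10 µg/L, 0 of 9 passed, against 0.0101% of all tested gene models. At citalopram 1000 µg/L it was 0 of 9, against 0.0304% of all. At ifosfamide 1 µg/L and at ifosfamide 100 µg/L, 0 of 9 enzyme genes and 0% of all tested gene models passed. The count was also 0 of 9 with voom on the recovered reads. At an unadjusted limma p under 0.05 it was 0 of 9 in each comparison. Of all 19723 gene models, 478 had such a p at citalopram 10 µg/L and 1434 at citalopram 1000 µg/L. With ifosfamide there were 946 at 1 µg/L and 644 at 100 µg/L. Between doses there were 723 for citalopram and 168 for ifosfamide. At such shares, 0 of 9 does not set the enzyme genes apart. limma's F-test of the 4 exposures jointly called 0 of 9 enzyme genes and 0% of all gene models, where 1139 of 19723 gene models had an unadjusted p under 0.05.

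In no comparison were all 4 libraries of a group above, or all below, those of the other group for any of the 9 enzyme genes. Such separation was seen for 2.51% of all tested gene models at citalopram 10 µg/L, 3.68% at citalopram 1000 µg/L, 6.98% with ifosfamide 1 µg/L and 4.3% with ifosfamide 100 µg/L, each against ERM. For the high over the low dose it was 1.28% with citalopram and 1.17% with ifosfamide. In RNA from whole larvae, fewer acinar cells and less enzyme transcript per cell cannot be told apart, and this holds for every difference given here.

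At citalopram 10 µg/L, the mean levels of all 9 tested enzyme genes were above those of ERM. For 8 of them the gap was smaller than the SD of the citalopram 10 µg/L libraries. For ela2 it was larger than the SD of either group, with 417 ± 39.9 FPKM at citalopram 10 µg/L and 354 ± 35.8 FPKM in ERM, while its libraries overlapped and its log2 difference was 0.24 (interval -0.49 to 0.96, limma adjusted p = 1). prss1 averaged 7567 ± 1739 FPKM at citalopram 10 µg/L and 6983 ± 520.3 FPKM in ERM (SD, n = 4 each), a log2 difference of 0.09 (95% interval -0.65 to 0.83, limma adjusted p = 1). ela2l had the largest log2 difference, 0.38 (interval -0.31 to 1.07), with 198 ± 56.6 FPKM at citalopram 10 µg/L and 147 ± 17.6 FPKM in ERM. The median log2 difference over the 9 genes was 0.20, against -0.0016 over all tested gene models. The higher libraries were replicates C and D, in which the summed level of the enzyme genes was 23251 and 23502 FPKM, against 15338 to 18731 FPKM in ERM, while replicates A and B had 16896 and 15136 FPKM.

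At citalopram 1000 µg/L, the mean FPKM of 9 of 9 enzyme genes was above that of ERM, the log2 differences of 8 of 9 were positive, and replicate C was the highest of its group for 9 of 9. prss59.2 had the largest log2 difference, 0.54 (interval -0.20 to 1.28, limma adjusted p = 0.839), with 5343 ± 3749 FPKM at citalopram 1000 µg/L and 3164 ± 263 FPKM in ERM (SD, n = 4 each). Without replicate C, prss59.2 was at 0.13. ela2l followed with 0.52 (limma adjusted p = 0.827), and 0.11 without replicate C. ela2 had a log2 difference of -0.04, with 370.04 ± 139.6 FPKM at citalopram 1000 µg/L and 354 ± 35.8 FPKM in ERM. Over the 9 genes the median was 0.30, against 0.00027 over all tested gene models. Without replicate C the median was -0.03, and the differences of prss1, prss59.1, ela3l and cel.1 had the opposite sign, at -0.14, -0.08, -0.05 and -0.03. Without replicate C, prss1 averaged 6459 ± 1548 FPKM at citalopram 1000 µg/L (SD, n = 3).

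At ifosfamide 1 µg/L, the mean levels of 8 of 9 enzyme genes were under those of ERM. prss1 averaged 5220 ± 1180 FPKM at ifosfamide 1 µg/L and 6983 ± 520.3 FPKM in ERM, a log2 difference of -0.45 (interval -1.19 to 0.30, limma adjusted p = 0.787). ela2 differed by -0.39 (interval -1.12 to 0.33) and cpa5 by -0.33 (interval -0.89 to 0.24). cpb1 was at 0.04, with 36.8 ± 6.36 FPKM at ifosfamide 1 µg/L and 35.7 ± 5.06 FPKM in ERM. The median over the 9 genes was -0.26, against -0.0069 over all tested gene models.

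At ifosfamide 100 µg/L, the mean levels of 9 of 9 enzyme genes were under those of ERM. In the fit of all 20 libraries, each difference was smaller than its standard error (SE). prss1 averaged 5953 ± 2055 FPKM at ifosfamide 100 µg/L and 6983 ± 520.3 FPKM in ERM, a log2 difference of -0.28 (SE 0.36, limma adjusted p = 0.92). prss59.1 differed by -0.28 (SE 0.34) and prss59.2 by -0.27 (SE 0.36). The median was -0.20, against -0.0090 over all tested gene models. Replicate B went the other way: its summed level of the enzyme genes was 23093 FPKM, above every ERM library, while replicates A, C and D had 13491, 11118 and 12984 FPKM, below every ERM library.

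The 4 comparisons share the ERM libraries, so the like sign of the genes within a dose, and of the 2 doses of a drug, is not independent evidence. The deposited values are scaled by size factors, so that the median difference of all genes is near 0. Scaled to total reads, the median of all tested gene models was -0.02 at citalopram 10 µg/L, -0.05 at citalopram 1000 µg/L, 0.13 with ifosfamide 1 µg/L and 0.10 with ifosfamide 100 µg/L. On that scale the median of the enzyme genes was 0.17 at citalopram 10 µg/L, 0.21 at citalopram 1000 µg/L, -0.09 with ifosfamide 1 µg/L and -0.06 with ifosfamide 100 µg/L. The signs of these medians were thus kept, but 2 of 9 enzyme genes were above ERM at ifosfamide 1 µg/L, ela2l and cpb1, and the same 2 at ifosfamide 100 µg/L.

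No enzyme gene passed the threshold between the doses of either drug. Between citalopram 1000 and 10 µg/L, 0 of 9 enzyme genes and 0% of all gene models passed. The largest log2 difference was that of prss59.2, 0.30 (interval -0.44 to 1.04, limma adjusted p = 1), with 5343 ± 3749 FPKM at 1000 µg/L and 3805 ± 899.9 FPKM at 10 µg/L. The median over the 9 genes was 0.14, and -0.23 without replicate C of citalopram 1000 µg/L. Between ifosfamide 100 and 1 µg/L, 0 of 9 enzyme genes and 0% of all gene models passed, and the differences ran from -0.09 for prss59.2 (interval -0.83 to 0.65) to 0.19 for ela2 (interval -0.53 to 0.92), with a median of 0.04. With 4 libraries per group, intervals about 1.1 to 1.5 log2 units wide mean that changes of moderate size would not have been detectable. These widths are from the fit of all 20 libraries, in which replicate C of citalopram 1000 µg/L adds to the shared spread. For prss1 at citalopram 10 µg/L against ERM, the interval was -0.65 to 0.83 with that library and -0.46 to 0.64 without it.

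**Figure D3:**
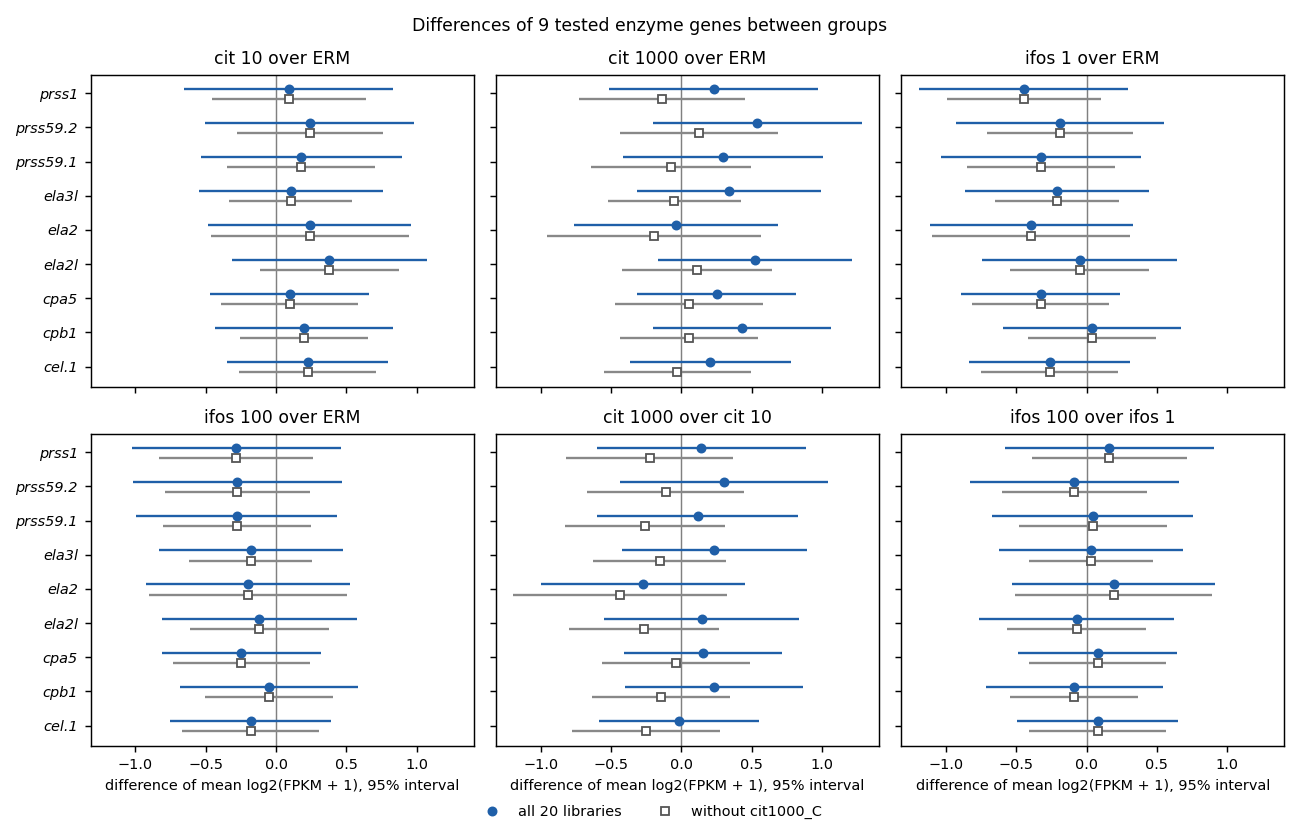
Difference of mean log2(FPKM + 1) for the 9 tested enzyme genes in 6 comparisons (tested dose over ERM, or high over low dose), with 95% intervals, from all 20 libraries (filled circles) and without replicate C of citalopram 1000 µg/L (open squares). All intervals span 0, and without that library prss1 at citalopram 1000 µg/L moves to -0.14.

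Across groups, the mean levels of prss1, prss59.1, cpa5, ela3l, cel.1 and ela2l followed the order citalopram 1000 µg/L, citalopram 10 µg/L, ERM, ifosfamide 100 µg/L and ifosfamide 1 µg/L from high to low. prss59.2 had the 2 ifosfamide doses exchanged, ela2 had the 2 citalopram doses exchanged, and cpb1 had ERM between the ifosfamide doses. No neighbours in these orders differed beyond their spread. Without replicate C of citalopram 1000 µg/L, citalopram 10 µg/L was highest for each of the 9 genes.

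The 10 genes summed to 19696 ± 4311 FPKM at citalopram 10 µg/L, 24364 ± 14601 FPKM at citalopram 1000 µg/L, 14123 ± 2859 FPKM with ifosfamide 1 µg/L and 15172 ± 5379 FPKM at ifosfamide 100 µg/L, against 17504 ± 1495 FPKM in ERM (SD, n = 4 each). Replicate C of citalopram 1000 µg/L reached 45904 FPKM, 2.62 times the ERM mean. Without it, that group summed to 17184 ± 3235 FPKM (n = 3). Scaled to total reads, the group sums at citalopram 1000 µg/L ran from 15094 to 28810 FPKM per library, and 28810 FPKM was the value of replicate C. On that scale the ERM libraries ran from 15968 to 17622 FPKM. The FPKM total of all gene models was also highest in replicate C. As a share of that total, the enzyme genes took 4.65% in replicate C and 3.31% to 3.58% in ERM. The next highest share was 4.38%, in replicate B of ifosfamide 100 µg/L.

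**Figure D4:**
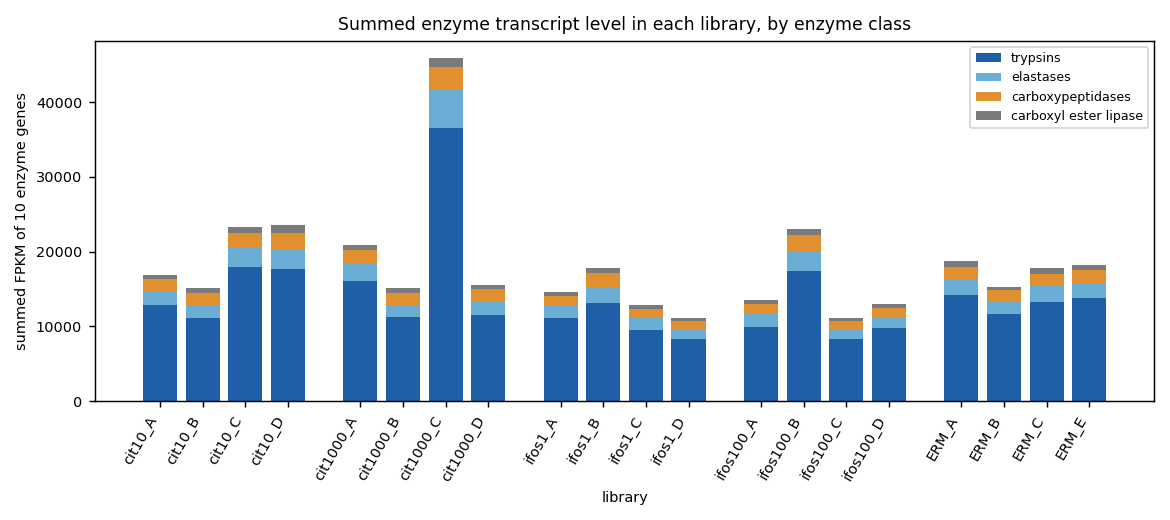
Summed FPKM of the 10 enzyme genes in each library (bars from 0), divided into trypsins, elastases, carboxypeptidases and carboxyl ester lipase; ctrb1 is too low to be seen. Replicate C of citalopram 1000 µg/L reaches 45904 FPKM, the ERM libraries lie between 15338 and 18731 FPKM, and trypsins take 73.5% to 79.7% of every bar.

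Trypsins were the largest part of this sum in every library. The smaller shares of carboxypeptidases and lipase varied more relative to their size. Trypsins took 73.5% to 79.7% of the summed FPKM, elastases 10.5% to 12.4%, carboxypeptidases 6.54% to 11.1% and the lipase 2.60% to 4.45%. The trypsin share was 76.1 ± 2.68% at citalopram 1000 µg/L and 75.6 ± 0.459% in ERM. The highest trypsin share and the lowest shares of carboxypeptidases and lipase were in replicate C of citalopram 1000 µg/L.

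A share and 2 ratios lay apart from ERM in an exposed group, out of 4 shares and 2 ratios examined in the 4 exposed groups. They were singled out after their values were seen, so they are given with no test. The elastase share was 12.1 ± 0.351% at ifosfamide 1 µg/L, with a range of 11.6% to 12.4%, and 11.2 ± 0.246% in ERM, with a range of 10.9% to 11.4%. The ratio of prss59.2 to prss59.1 was 1.19, 1.14, 1.33 and 1.21 at citalopram 1000 µg/L, against 0.987, 1.07, 1.02 and 1.04 in ERM. All 4 libraries of citalopram 1000 µg/L were above all 4 ERM libraries. At citalopram 10 µg/L the ratio ran from 1.04 to 1.101, at ifosfamide 1 µg/L from 1.03 to 1.32 and at ifosfamide 100 µg/L from 0.99 to 1.09. The ratio also depends on how reads shared by the copies were split. The ratio of prss1 to the sum of prss59.1 and prss59.2 lay between 0.978 and 1.072 at citalopram 10 µg/L and between 0.836 and 1.083 with ifosfamide 1 µg/L, below the 1.094 to 1.16 of ERM in every library. At citalopram 1000 µg/L it ran from 0.818 to 1.179 and at ifosfamide 100 µg/L from 1.068 to 1.18, and both ranges overlapped ERM.

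Levels of the enzyme genes varied together from library to library. Over all 20 libraries, the 36 pairs among the 9 tested genes had a median Pearson r of 0.860 (0.358 to 0.974) on log2(FPKM + 1). The median was 0.802 (0.277 to 0.955) over 19 libraries without replicate C of citalopram 1000 µg/L, and 0.842 after removal of group means. The libraries share the scaling that was applied to all their genes, so these values are descriptions. The tightest pair was prss59.1 and prss59.2 with r = 0.974, followed by prss1 and prss59.1 with r = 0.970 and prss1 and ela3l with r = 0.966. ela2 was least like the rest, with a median r of 0.647, and its lowest r was 0.358, with cpb1.

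The highest and lowest levels of most enzyme genes fell in the same few libraries. The genes vary together, so the counts that follow are not independent. 8 of the 9 tested genes were highest in replicate C of citalopram 1000 µg/L. 5 were lowest in replicate C of ifosfamide 100 µg/L and 3 in replicate D of ifosfamide 1 µg/L. ela2 departed from the median deviation of the other 8 genes by -0.91 log2 units in replicate C of citalopram 1000 µg/L, by -0.88 in replicate D of that group and by -0.90 in replicate D of ifosfamide 1 µg/L. cpb1 departed by -0.68 in replicate A of citalopram 1000 µg/L. With its contig model added to ela2, the log2 difference of ela2 at citalopram 1000 µg/L was 0.03, against -0.04 for ela2 alone.

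**Figure D5:**
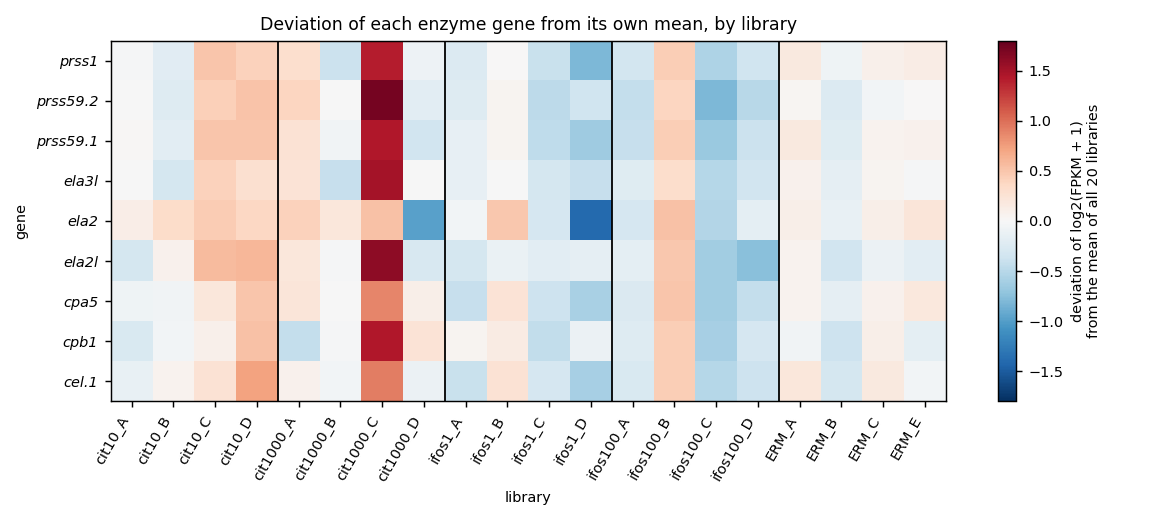
Deviation of log2(FPKM + 1) of each tested enzyme gene (lines) from its own mean over all 20 libraries, by library (columns, in 5 groups of 4), from blue for lower to red for higher. The column of replicate C of citalopram 1000 µg/L (cit1000_C) is red for all 9 genes and the ERM columns are pale, while ela2 is blue in replicate D of citalopram 1000 µg/L (cit1000_D) and of ifosfamide 1 µg/L (ifos1_D).

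The spread between libraries was smaller in ERM than in the exposed groups for most enzyme genes. The SD of log2(FPKM + 1) was smallest in ERM for 7 of the 9 genes, where 30.2% of all tested gene models had their smallest SD in ERM. The 9 genes vary together, so they are not independent in this count. The SD of the summed level was smallest in ERM also for the liver, intestine and duct lists given below. This was not so for the secretory pathway and islet lists. The median SD over the 9 genes was 0.34 at citalopram 10 µg/L, 0.78 at citalopram 1000 µg/L, 0.30 with ifosfamide 1 µg/L and 0.46 with ifosfamide 100 µg/L, against 0.15 in ERM. Over all tested gene models it was 0.25, 0.41, 0.22 and 0.23 in the same exposed groups, against 0.20 in ERM. The model fitted 1 spread per gene over all groups, and the interval of prss1 at citalopram 10 µg/L against ERM was -0.46 to 0.64 in the fit of 19 libraries, without replicate C of citalopram 1000 µg/L.

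Genes outside the list were ranked by the correlation of their log2(FPKM + 1) with the mean standardized level of the 9 enzyme genes over 20 libraries, among 19714 gene models. The first 3 were ctrl, a chymotrypsin-like protease gene (r = 0.978), zgc:92041 (r = 0.963) and amy2a, pancreatic amylase (r = 0.938). They were followed by c6ast3, an astacin protease gene (0.935), tagln2, an actin-binding protein gene (0.934), a model matched to selenoprotein M (0.930), leg1.1, a liver-enriched gene (0.929), CELA1 (1 of many), an elastase gene (0.928), the contig model of chymotrypsin A (0.927) and serpina1l, a plasma protease inhibitor gene of the liver (0.926). Of these 10, 7 were also among the first 10 without replicate C of citalopram 1000 µg/L, where ctrl had r = 0.960, zgc:92041 0.931 and amy2a 0.915. In all, 30 gene models had r of at least 0.9 over 20 libraries and 4 over 19. Thus the contig model of chymotrypsin followed the enzyme genes closely, as did several genes that are not acinar enzymes.

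Over all 20 libraries, other acinar enzymes and granule proteins gave medians of the same sign as the enzyme genes in each comparison with ERM. Without replicate C of citalopram 1000 µg/L the signs at that dose differed, with 0.08 for this list and -0.03 for the enzyme genes. Of 42 listed symbols, 18 were found and 14 passed the filter on low values. 0 of 14 passed the threshold in any of the 6 comparisons. Their median log2 difference from ERM was 0.09 at citalopram 10 µg/L (8 of 14 positive), 0.29 at citalopram 1000 µg/L (10 of 14; 0.08 without replicate C), -0.20 with ifosfamide 1 µg/L (2 of 14) and -0.26 with ifosfamide 100 µg/L (3 of 14). Scaled to total reads, 7 of 14 were positive with ifosfamide 1 µg/L (median -0.03) and 4 of 14 with ifosfamide 100 µg/L (median -0.12). The most abundant were amy2a (1380 FPKM), ctrl (1173 FPKM) and cpa1 (328 FPKM). ctrl had 1293 ± 302 FPKM at citalopram 10 µg/L, 1618 ± 886 FPKM at citalopram 1000 µg/L, 847 ± 186 FPKM with ifosfamide 1 µg/L and 978 ± 391 FPKM at ifosfamide 100 µg/L, against 1130 ± 135 FPKM in ERM. Without replicate C, ctrl averaged 1190.5 ± 285 FPKM at citalopram 1000 µg/L (n = 3). The summed level of the list followed that of the 10 genes with r = 0.982 over 20 libraries and 0.974 over 19.

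A gene of this list, cuzd1.1, which codes for a zymogen granule membrane protein in mammals, was singled out after its values were seen. It had 5.99, 4.22, 11.93 and 7.94 FPKM at citalopram 1000 µg/L, against 2.79, 1.96, 2.73 and 2.01 FPKM in ERM. The 4 libraries at citalopram 1000 µg/L lay above all 4 ERM libraries. This held for 2 of 14 tested genes of the list, against 1.4% of all tested gene models. The other was prss60.3, named after its values were seen, with a log2 difference of 0.77 (limma adjusted p = 0.44). At ifosfamide 100 µg/L, prss60.3 was again above all ERM libraries, as were 1.76% of all tested gene models. The log2 difference of cuzd1.1 at citalopram 1000 µg/L was 1.27, with a limma adjusted p of 0.104. It did not pass the threshold, and the difference was 1.04 without replicate C. Its level did not follow the 10 enzyme genes closely (r = 0.49 over 20 libraries and 0.11 over 19).

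Acinar transcription factors averaged lower levels than most of the enzyme genes. All 19 listed symbols were found, 15 passed the filter and 0 of 15 passed the threshold in any comparison. The most abundant were xbp1, which drives the secretory machinery (83.0 FPKM), meis2a (41.8 FPKM) and meis2b (22.3 FPKM). The r of meis2a with the enzyme genes was 0.04 over 20 libraries and 0.15 over 19, and that of meis2b 0.21 and 0.02. In RNA from whole larvae, the levels of this list cannot be assigned to acinar cells. xbp1 had log2 differences of 0.20 at citalopram 10 µg/L, 0.49 at citalopram 1000 µg/L, -0.15 with ifosfamide 1 µg/L and -0.18 with ifosfamide 100 µg/L. It had 227 FPKM in replicate C of citalopram 1000 µg/L, and without that library its difference at this dose was 0.12. The medians of the list were 0.03 at citalopram 10 µg/L, 0.10 at citalopram 1000 µg/L, 0.07 with ifosfamide 1 µg/L and 0.10 with ifosfamide 100 µg/L. The next 3 genes were named after their values were seen. ptf1a, the acinar regulator, averaged 3.22 FPKM at citalopram 10 µg/L, 4.35 FPKM at citalopram 1000 µg/L, 2.85 FPKM with ifosfamide 1 µg/L and 2.59 FPKM with ifosfamide 100 µg/L, against 2.72 FPKM in ERM. Replicate C of citalopram 1000 µg/L had 8.49 FPKM of ptf1a, and the mean of that group without it was 2.97 FPKM. xbp1 and ptf1a each followed the enzyme genes with r = 0.85 over 20 libraries and r = 0.68 over 19. These were the highest r of the list. Other genes of the list ran the other way, down to r = -0.83 over 20 libraries and -0.76 over 19. The summed level of the list followed that of the enzyme genes with r = 0.81 over 20 libraries and 0.56 over 19. bhlha15, which codes for the granule regulator Mist1, averaged 1.06 FPKM and rbpjl 0.375 FPKM, and each was at 0 in replicate C of citalopram 1000 µg/L. The r of bhlha15 with the enzyme genes was -0.62 over 20 libraries and -0.38 over 19.

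Genes of hormonal and vesicular control of secretion were few and low. Of 22 listed symbols 14 were found, 8 passed the filter and 0 of 8 passed the threshold. The most abundant were stxbp2 (14.8 FPKM) and vamp8 (11.8 FPKM), which act in granule fusion, and ccka, which codes for cholecystokinin (10.3 FPKM). The median log2 difference of the list was 0.04 at citalopram 10 µg/L, -0.08 at citalopram 1000 µg/L (0.10 without replicate C), 0.19 with ifosfamide 1 µg/L and 0.08 with ifosfamide 100 µg/L. Their summed level followed that of the enzyme genes with r = 0.35 over 20 libraries and -0.20 over 19.

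The secretory pathway carries enzymes from the endoplasmic reticulum to the granule, and 43 of its 50 listed genes were tested. 0 of 43 passed the threshold in any comparison. At citalopram 1000 µg/L 38 of 43 had positive log2 differences with a median of 0.24, and 0.05 without replicate C. At citalopram 10 µg/L 36 of 43 were positive with a median of 0.11. The medians were 0.0053 at ifosfamide 1 µg/L and -0.0011 at ifosfamide 100 µg/L. The most abundant were the translocon gene sec61a1 (139 FPKM), ssr2 (135 FPKM) and the disulfide isomerase gene pdia3 (117 FPKM). The summed level of this list followed the enzyme genes with r = 0.94 over 20 libraries and 0.87 over 19.

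The summed levels of markers of other digestive organs moved with the enzyme genes across libraries, while single genes of each list varied. Their part in the results was not tested. Of 29 liver symbols, 26 gene models were tested, and 0 of 26 passed the threshold. The median log2 difference of the liver list was -0.06 at citalopram 10 µg/L, -0.02 at citalopram 1000 µg/L (-0.21 without replicate C), -0.30 with ifosfamide 1 µg/L (25 of 26 negative) and -0.26 with ifosfamide 100 µg/L (25 of 26 negative). Scaled to total reads, the medians with ifosfamide were -0.13 at 1 µg/L (4 of 26 positive) and -0.12 at 100 µg/L (6 of 26). The summed liver level ran from 3029 to 6298 FPKM at citalopram 10 µg/L, from 2919 to 8056 FPKM at citalopram 1000 µg/L, from 2552 to 3647 FPKM with ifosfamide 1 µg/L and from 2778 to 4635 FPKM at ifosfamide 100 µg/L, against 3684 to 4398 FPKM in ERM. It correlated with the summed enzyme level with r = 0.88 over 20 libraries and 0.80 over 19. For single liver genes, r with the mean standardized level of the enzyme genes ran from -0.43 to 0.93 over 20 libraries. Over 19 libraries it ran from -0.10 to 0.87. The most abundant liver genes were apoa2 (931 FPKM), fabp10a (901 FPKM) and apoa1b (476 FPKM), and fabp10a, a defining hepatocyte gene, was above 0 in every library.

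The intestine list behaved likewise. Of its 25 genes 24 were tested and 0 of 24 passed. The median was -0.03 at citalopram 10 µg/L, 0.02 at citalopram 1000 µg/L (-0.09 without replicate C), -0.27 with ifosfamide 1 µg/L and -0.24 with ifosfamide 100 µg/L. Scaled to total reads, it was -0.11 with ifosfamide 1 µg/L (8 of 24 positive) and -0.12 with ifosfamide 100 µg/L (9 of 24). The summed level ran from 1950 to 3365 FPKM at citalopram 10 µg/L, from 1828 to 3908 FPKM at citalopram 1000 µg/L, from 1474 to 2505 FPKM with ifosfamide 1 µg/L and from 1474 to 2741 FPKM at ifosfamide 100 µg/L, against 2332 to 2638 FPKM in ERM. Its most abundant genes were the chitinase gene chia.2 (637 FPKM), fabp6 (434 FPKM) and apoa4b.1 (297 FPKM). tmprss15, the gene of enteropeptidase, named after its values were seen, had a mean of 0.189 FPKM and was at 0 in replicate C of citalopram 1000 µg/L. A same-strand model at or near its position on an alternate contig, also matched to enteropeptidase, had a mean of 0.714 FPKM. The values under the symbol alone are thus not the whole level of this transcript. The intestinal sum correlated with the enzyme sum with r = 0.77 over 20 libraries and 0.68 over 19. For single intestinal genes, r with the mean standardized level of the enzyme genes ran from -0.55 to 0.78 over 20 libraries. Over 19 libraries it ran from -0.15 to 0.80.

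Within the pancreas, the summed levels of the duct and islet lists differed in how they followed the enzyme genes, while single genes of each list varied. Of 12 duct symbols, 12 gene models were tested and 0 passed. Their medians were -0.07 at citalopram 10 µg/L, 0.07 at citalopram 1000 µg/L, -0.11 with ifosfamide 1 µg/L and -0.08 with ifosfamide 100 µg/L. Scaled to total reads, the medians with ifosfamide changed sign, to 0.04 at 1 µg/L (8 of 12 positive) and 0.05 at 100 µg/L (7 of 12). The duct sum ran from 772 to 1410 FPKM at citalopram 10 µg/L, from 667 to 2032 FPKM at citalopram 1000 µg/L, from 552 to 841 FPKM with ifosfamide 1 µg/L and from 593 to 1037 FPKM at ifosfamide 100 µg/L, against 868 to 1013 FPKM in ERM. It correlated with the enzyme sum with r = 0.89 over 20 libraries and 0.81 over 19. It was made up mostly of lgals2b (620.4 FPKM), anxa4 (150.5 FPKM) and tm4sf4 (86.3 FPKM), which other epithelia also express. The duct channel gene cftr, named after its values were seen, had a mean of 1.197 FPKM. Over 20 libraries, r with the mean standardized level of the enzyme genes was 0.80 for lgals2b, 0.87 for anxa4 and 0.83 for tm4sf4. Over 19 libraries it was 0.67, 0.81 and 0.70. For cftr it was -0.31 over 20 libraries and 0.13 over 19.

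Of 22 islet symbols 18 were found and 14 tested, with 0 past the threshold. Their medians were 0.02 at citalopram 10 µg/L, 0.19 at citalopram 1000 µg/L, -0.02 with ifosfamide 1 µg/L and 0.04 with ifosfamide 100 µg/L. The islet sum ran from 218 to 269.9 FPKM at citalopram 10 µg/L, from 243 to 387 FPKM at citalopram 1000 µg/L, from 193 to 272 FPKM with ifosfamide 1 µg/L and from 224 to 278 FPKM at ifosfamide 100 µg/L, against 180.4 to 285 FPKM in ERM. Its r with the enzyme sum was 0.37 over 20 libraries and -0.18 over 19. The most abundant were neurod1 (121 FPKM), sst1.1 (49.3 FPKM) and isl1 (21.1 FPKM), of which neurod1 and isl1 are also neuronal genes. The islet hormone genes ins and gcga, named after their values were seen, were low, unlike the hormone gene sst1.1. ins had a mean of 1.46 FPKM and was at 0 in 1 library, and gcga had a mean of 1.46 FPKM. Over 20 libraries, r with the mean standardized level of the enzyme genes was 0.90 for sst1.1 (0.82 over 19) and 0.79 for ins (0.71). It was 0.20 for gcga (0.17 over 19), 0.0084 for neurod1 (-0.36) and 0.027 for isl1 (-0.22).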

How the data were processed

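Whole-larva RNA was poly(A)-selected and made into strand-specific libraries, per the labels' protocols. The deposited table holds FPKM per gene model on GRCz11 coordinates. DESeq2, featureCounts, HISAT2 and fastp are the tools listed in the submitters' processing notes, with no versions or roles. Reads recovered from the FPKM and gene lengths were whole in 100% of values within 0.01. The deposited scaling matched median-of-ratios size factors within 0.001 in 20 of 20 libraries, so FPKM totals differ between libraries. Whether reads matching several genes were counted is not given in the sources used here, so the split between tandem or near-identical copies is uncertain.

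limma 3.58.1 (R 4.3.3) was run with a mean-variance trend on log2(FPKM + 1) over the 19723 gene models that averaged 1 FPKM or more. All 20 libraries in 5 groups shared 1 estimate of spread per gene. The pseudocount of 1 understates changes of low genes. p-values were two-sided, were adjusted over all tested gene models by the Benjamini-Hochberg method, and were called under 0.05. They measure the spread between beakers. The limma script was first tested on simulated data. Summaries and plots were made with Python 3.11.15 and matplotlib 3.10.9.

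The enzyme genes and the lists were chosen with earlier results of these data known. All 10 enzyme genes are named. From each list the 3 genes with the highest mean FPKM are named when 0 passed the threshold, and from the genes most like the enzymes the first 10. Any gene named outside this rule is said to be named after its values were seen. Alternatives covered the pseudocount, the filter, voom on recovered reads, library weights, a replicate block, other scalings, gene length, the libraries fitted and each library left out. The sums with contig models were added after seeing the data. Sequences were not used here.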

Additional observations from a re-analysis of the deposited data

Results flagged for a closer look

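ctrb1 at citalopram 10 µg/L had a library far from the others of its group. Replicate C had 1.48 FPKM and the other 3 libraries 0.179 to 0.287 FPKM. On log2(FPKM + 1), the gap to the nearest library was 0.882 of the range of the group. This is above Dixon's critical value at 95% for a group of 4 libraries. All 4 values rest on few reads, and ctrb1 had at most 50 reads in any library. Of 55 combinations of gene model and group examined, this was the only value past the limit, and chance marks about 1 in 20 groups.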

How the results depend on the processing

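In 1038 recomputed log2 differences of the 9 enzyme genes (54 differences, 12 settings and each library left out), 0 passed the threshold and the smallest adjusted p was 0.0843. The sign was kept in 969 and changed in 69, of which 48 came from a left-out library. The median over the 9 genes against ERM lay between 0.11 and 0.23 at citalopram 10 µg/L and between 0.17 and 0.38 at 1000 µg/L over 12 settings that kept all libraries of the compared groups, and at -0.03 at 1000 µg/L without replicate C. With ifosfamide it lay between -0.33 and -0.09 at 1 µg/L and between -0.42 and -0.06 at 100 µg/L. ctrb1 rested on 3 to 50 reads per library, where the contig model at its position had 1578 to 13270 reads. The values of the other genes rest on 4 libraries per group. The cause of each change listed here was not tested.

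The count of all gene models past the threshold was 2 at citalopram 10 µg/L, 6 at citalopram 1000 µg/L and 0 in the other comparisons. At citalopram 10 µg/L it was 0 with a pseudocount of 5, 0 with no filter, 0 with voom and 5 with library weights. At citalopram 1000 µg/L it was 15 with a mean FPKM of at least 5, 3879 with library weights, 3 with the gene length trend removed and 0 in the 8 compared libraries alone. At ifosfamide 1 µg/L it was 188 with library weights. At ifosfamide 100 µg/L it was 1 with no filter, 2 with a mean FPKM of at least 5, 2 when scaled to total reads, 209 with library weights and 1 in the 8 compared libraries alone. Between citalopram 1000 and 10 µg/L it was 1009 with library weights, and between ifosfamide 100 and 1 µg/L it was 2 with no filter. The weights ran from 0.128 for replicate C to 15.7 for replicate A of citalopram 1000 µg/L, and their estimation stopped before convergence.

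With the replicate block, the counts at citalopram 10 and 1000 µg/L were 0 and 0. ela2 was at 0.19 at citalopram 1000 µg/L and at 0.023 at ifosfamide 100 µg/L, and cpb1 at -0.0008 at ifosfamide 1 µg/L. Deviations of same-letter libraries had a median r of 0.021 (36 pairs, -0.435 to 0.424). For different letters the median was -0.004 (124 pairs, -0.606 to 0.589). The ranges overlap widely, so these values do not settle whether the letters pair the libraries.

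With a library of the compared groups left out, the counts were 0 to 2 at citalopram 10 µg/L, 0 (without ERM replicate A or E) to 40 (without citalopram 1000 µg/L replicate D) at citalopram 1000 µg/L, 0 to 5 (without ifosfamide 1 µg/L replicate A) at ifosfamide 1 µg/L and 0 to 5 (without ERM replicate C) at ifosfamide 100 µg/L. All groups share an estimate of spread, and without replicate C of citalopram 1000 µg/L the counts were 4 at citalopram 10 µg/L and 2 at ifosfamide 100 µg/L.

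Enzyme genes changed sign with library weights at citalopram 10 µg/L (prss1 -0.036, ela3l -0.024), citalopram 1000 µg/L (ela2 0.27, cpb1 -0.31) and ifosfamide 1 µg/L (cpb1 -0.13), between the citalopram doses (ela2 0.073, cpb1 -0.44) and between the ifosfamide doses (prss59.1 -0.0485, cpa5 -0.0545, ela3l -0.062, cel.1 -0.047). Scaled to total reads, ela2l was at 0.125 at ifosfamide 1 µg/L, ela2l at 0.018 and cpb1 at 0.085 at ifosfamide 100 µg/L, and ela3l at -0.0054 between the ifosfamide doses. ela2l was at 0.029 at ifosfamide 1 µg/L with the length trend removed, cel.1 at 0.001 between the citalopram doses with voom, and ela2 at 0.028 at citalopram 1000 µg/L with its contig model added.

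With single libraries left out, the ranges that span 0 were as follows. At citalopram 10 µg/L they were -0.020 to 0.22 for prss1 and -0.0016 to 0.24 for ela3l (lowest without replicate C), and -0.022 to 0.17 for cpa5 (lowest without replicate D). At citalopram 1000 µg/L they were -0.14 to 0.46 for prss1, -0.077 to 0.52 for prss59.1, -0.051 to 0.59 for ela3l and -0.028 to 0.31 for cel.1 (lowest without replicate C), and -0.20 to 0.30 for ela2 (highest without replicate D). At ifosfamide 1 µg/L they were -0.12 to 0.020 for ela2l (highest without ERM replicate A) and -0.046 to 0.15 for cpb1 (lowest without ERM replicate B). At ifosfamide 100 µg/L they were -0.37 to 0.042 for ela2l (highest without replicate D) and -0.26 to 0.094 for cpb1 (highest without replicate C).

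Between citalopram 1000 and 10 µg/L the ranges, lowest without replicate C of 1000 µg/L, were -0.23 to 0.37 for prss1, -0.11 to 0.53 for prss59.2, -0.26 to 0.34 for prss59.1, -0.040 to 0.27 for cpa5, -0.15 to 0.48 for ela3l, -0.25 to 0.15 for cel.1, -0.44 to 0.065 for ela2, -0.27 to 0.36 for ela2l and -0.14 to 0.48 for cpb1. cel.1 was positive without citalopram 10 µg/L replicate D and ela2 without citalopram 1000 µg/L replicate D. Between ifosfamide 100 and 1 µg/L they were -0.054 to 0.29 for prss1, -0.19 to 0.18 for prss59.1, -0.15 to 0.25 for cpa5, -0.14 to 0.14 for ela3l and -0.13 to 0.25 for cel.1 (lowest without replicate B of 100 µg/L), -0.17 to 0.46 for ela2 (lowest without replicate D of 1 µg/L), -0.33 to 0.069 for prss59.2 and -0.29 to 0.058 for cpb1 (highest without replicate C of 100 µg/L), and -0.32 to 0.092 for ela2l (highest without replicate D of 100 µg/L).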

Other observations

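The split seen for ctrb1 between a named gene and a model on an alternate contig was also seen for other listed genes, which were named after their values were seen. Each of the following contig models lies on the same strand within 5000 bases of the named gene's coordinates, and the deposited annotation matches it to the same protein. sec61g, a subunit of the endoplasmic reticulum translocon, had a mean of 0.00347 FPKM, and its contig model had 126 FPKM. copb2, a coat protein of transport vesicles, had 0.0266 FPKM, and its contig model had 10.9 FPKM. kng1, the plasma kininogen gene of the liver list, had 0.0024 FPKM, and its contig model had 11.4 FPKM. vipr2, a receptor for vasoactive intestinal peptide, had 0.411 FPKM, and its contig model had 2.94 FPKM. A level near 0 under a gene's symbol in this table is thus not by itself a measure of the transcript's absence.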
